A study of Homo sapiens with 6 samples.

Results

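The genes described here link nutrient sensing at the lysosome to the MITF-TFE transcription factors: MITF, TFEB and TFE3, the folliculin gene FLCN with its partners FNIP1 and FNIP2, the Rag GTPase genes RRAGA, RRAGC and RRAGD, and the kinase gene MTOR. They were taken by name, 10 of the 34869 genes in the deposited table, and no threshold on a measured value was used. The choice was made with earlier results of these data known. RNA was sequenced from NCI-H295R, a human adrenocortical carcinoma line that makes adrenal steroids. One group carried a lentiviral shRNA against TPD52 (shTPD52, 3 libraries) and the other a lentiviral shRNA with no target (shCtrl, 3 libraries), so both groups had been transduced. Both were grown in DMEM/F12 with serum and insulin-transferrin-selenium. The labels name no time after transduction, give the same hairpin label to every shTPD52 library, and do not say whether replicates were separate cultures. P-values therefore measure only the spread between these libraries, which may be technical.

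In background, the Rag GTPases work as pairs, RagA or RagB with RagC or RagD, and bring the kinase complex mTORC1 to the lysosome when amino acids are at hand. Folliculin, bound to FNIP1 or FNIP2, turns RagC and RagD into the form in which they hand the MITF-TFE factors to mTORC1, and phosphorylation then keeps those factors in the cytoplasm. When the factors are free, they enter the nucleus and bind E-boxes in the promoters of lysosomal and autophagy genes, the so-called CLEAR genes, and RRAGD is one of their targets in other cells. The handing over of the factors and their move to the nucleus are events of proteins, and what was measured here is RNA.

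Values are FPKM, the reads of a gene per kb of its length and scaled to the library's reads. Levels of different genes can be set side by side only roughly, since the lengths used need not match the transcripts expressed. Fold changes are differences, shTPD52 minus shCtrl, of the group means of log2(FPKM + 0.5), on which the added 0.5 makes changes at low levels look smaller than they are. They were tested with limma over the 12782 genes that averaged 1 FPKM or more, and a gene was called when its Benjamini-Hochberg adjusted p was under 0.05. TPD52 itself had 0.630, 0.635 and 0.655 FPKM in shTPD52 replicates 1, 2 and 3, against 1.42, 1.18 and 1.29 FPKM in the shCtrl replicates, so the label of the knockdown held in every library. The ratio of means was 0.494. TPD52 averaged 0.969 FPKM, under the filter, and rested on 151 to 204 reads per shTPD52 library and 292 to 396 per shCtrl library. Added to the fit by itself, it had a fold change of -0.65 (limma adjusted p = 0.0218). After the correction for gene length and GC described below it was -0.50 and did not pass (limma adjusted p = 0.0741).

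Depth, like all read numbers here, was worked back from the FPKM values, and these estimates lay between 29544341 and 38396624 reads per library. shTPD52 replicate 2 stood apart from its group: on the first principal component, which held 60.96% of the variance, it lay at 0.291, with shTPD52 replicates 1 and 3 at 27.3 and 35.3 and the shCtrl libraries between -24.1 and -16.4. Mitochondrially encoded genes took 19.6% to 24.3% of reads in shTPD52 and 17.5% to 18.5% in shCtrl. Of all 12782 genes 18.3% were called, 12.7% lower and 5.63% higher in shTPD52. The lower calls were unevenly spread over gene length, 17.5% of genes of at least 5 kb and 8.63% of shorter ones, while 2.19% of the long genes and 8.50% of the shorter ones were called higher. Without shTPD52 replicate 2, 32.9% of genes were called lower. The median fold change of all tested genes was -0.11 on the log2 scale. Median-ratio scaling moved that median to 0.0005 and the calls to 1038 lower and 1083 higher, and a loess correction of each library for gene length and GC (called length and GC correction from here on) gave 1276 lower and 1359 higher.

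The adrenocortical identity given by the labels was matched by its markers, all 10 of which averaged at least 1 FPKM. Their sum was 483 to 491 FPKM in shTPD52 and 418 to 442 FPKM in shCtrl. Of 8 fibroblast markers 1 was tested, COL3A1, and the list summed to 19.9 to 25.3 FPKM in shTPD52 and 23.6 to 25.3 FPKM in shCtrl. Of 8 leukocyte markers 1 was tested. PTPRC, the pan-leukocyte marker, was at 0 in 4 of 6 libraries and reached 0.00636 FPKM. The adrenal medulla list summed to 35.2 to 38.5 FPKM in shTPD52 and 44.9 to 49.1 FPKM in shCtrl, nearly all of it CHGB, while TH, which makes the first step toward catecholamines, reached only 0.123 FPKM. The part of these sums in the results below was not tested.

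Promoter windows were searched for exact strings of letters that the factors bind. Sites spelled otherwise or farther from a start were not looked for, so a window without a match does not show that a gene lacks a site. RefSeq windows (GRCh38.p14, 250 bases before to 50 bases after a start) were at hand for 8 of the 10 genes, 13 windows in all, and not for RRAGA and RRAGD. They were searched on both strands for the E-box core CACGTG, the longer CLEAR palindrome, which is this core with GT before it and AC after it, and TCATGTGA, the box MITF binds in pigment cell genes. Among 35116 RefSeq windows of the same length, CACGTG lay in 7.256%, the palindrome in 0.353% and TCATGTGA in 1.0%. FNIP1 (chr5:131796968-131797267, minus strand) held 2 cores and RRAGC (chr1:38859723-38860022, minus strand) held 1, while the second window of FNIP2 (chr4:158805589-158805888, plus strand) held TCATGTGA as its reverse complement. The FLCN window (chr17:17237119-17237418, minus strand), shown because FLCN had the smallest p among the 10 genes, held none of these motifs. None was found either in the 3 windows of MITF, the 3 of TFEB, those of TFE3 and MTOR, or the first of FNIP2. For comparison, RRAGB (chrX:55717499-55717798, plus strand), the paralog of RRAGA, held 3 cores, 1 of them within the full palindrome, and GAA (chr17:80101331-80101630, plus strand), a lysosomal CLEAR gene described further on, held that palindrome at 2 places. Each window is given 5′ to 3′ on the strand of its gene, with matches in capitals. A match is a string of letters and not a measured binding site.
FNIP1: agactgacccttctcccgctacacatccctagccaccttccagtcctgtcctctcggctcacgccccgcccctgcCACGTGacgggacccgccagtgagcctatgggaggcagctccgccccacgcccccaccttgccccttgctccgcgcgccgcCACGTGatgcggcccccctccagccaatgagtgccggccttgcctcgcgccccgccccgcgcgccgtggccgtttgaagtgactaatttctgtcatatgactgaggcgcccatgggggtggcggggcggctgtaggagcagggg
RRAGC: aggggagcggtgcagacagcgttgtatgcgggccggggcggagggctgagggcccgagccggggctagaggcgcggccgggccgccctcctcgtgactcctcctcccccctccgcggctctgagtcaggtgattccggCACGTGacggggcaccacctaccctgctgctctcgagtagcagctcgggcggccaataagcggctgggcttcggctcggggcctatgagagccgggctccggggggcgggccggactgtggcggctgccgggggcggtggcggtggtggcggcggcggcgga
FNIP2, second window: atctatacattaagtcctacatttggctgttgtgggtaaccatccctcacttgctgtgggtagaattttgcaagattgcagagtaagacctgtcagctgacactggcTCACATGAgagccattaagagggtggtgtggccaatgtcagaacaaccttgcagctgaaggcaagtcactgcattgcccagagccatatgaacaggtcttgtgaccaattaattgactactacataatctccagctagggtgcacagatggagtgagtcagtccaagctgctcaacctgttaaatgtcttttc
FLCN: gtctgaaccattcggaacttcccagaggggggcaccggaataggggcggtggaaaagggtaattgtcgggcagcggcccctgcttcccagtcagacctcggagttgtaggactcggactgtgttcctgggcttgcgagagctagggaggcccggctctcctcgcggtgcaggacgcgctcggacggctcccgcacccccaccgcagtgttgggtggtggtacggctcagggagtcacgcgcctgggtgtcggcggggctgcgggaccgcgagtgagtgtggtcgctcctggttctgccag
RRAGB: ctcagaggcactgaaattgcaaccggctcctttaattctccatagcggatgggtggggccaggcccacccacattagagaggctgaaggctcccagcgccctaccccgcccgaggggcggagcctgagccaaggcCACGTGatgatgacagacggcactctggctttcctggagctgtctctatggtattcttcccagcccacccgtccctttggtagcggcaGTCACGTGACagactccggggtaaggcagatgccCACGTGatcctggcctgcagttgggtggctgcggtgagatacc
GAA: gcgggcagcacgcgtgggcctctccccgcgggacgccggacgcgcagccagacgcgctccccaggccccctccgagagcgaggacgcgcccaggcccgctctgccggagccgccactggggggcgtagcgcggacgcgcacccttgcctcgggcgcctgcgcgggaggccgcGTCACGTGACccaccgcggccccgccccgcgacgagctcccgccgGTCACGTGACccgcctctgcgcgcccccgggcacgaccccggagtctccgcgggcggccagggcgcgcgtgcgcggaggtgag

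Of the 10 genes, 4 fell in shTPD52 (MITF, FLCN, RRAGD and MTOR), none rose, and 6 did not pass the test, against 12.7% of all tested genes called lower. In 6 of the 10 all shTPD52 libraries lay below all shCtrl libraries, which was so for 28.3% of tested genes, and in 4 the groups overlapped. In 9 of the 10 the mean over all libraries passed the filter, and FNIP2 was below it. In bulk RNA, fewer cells of a kind and less RNA per cell cannot be told apart.

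**Figure D1:**
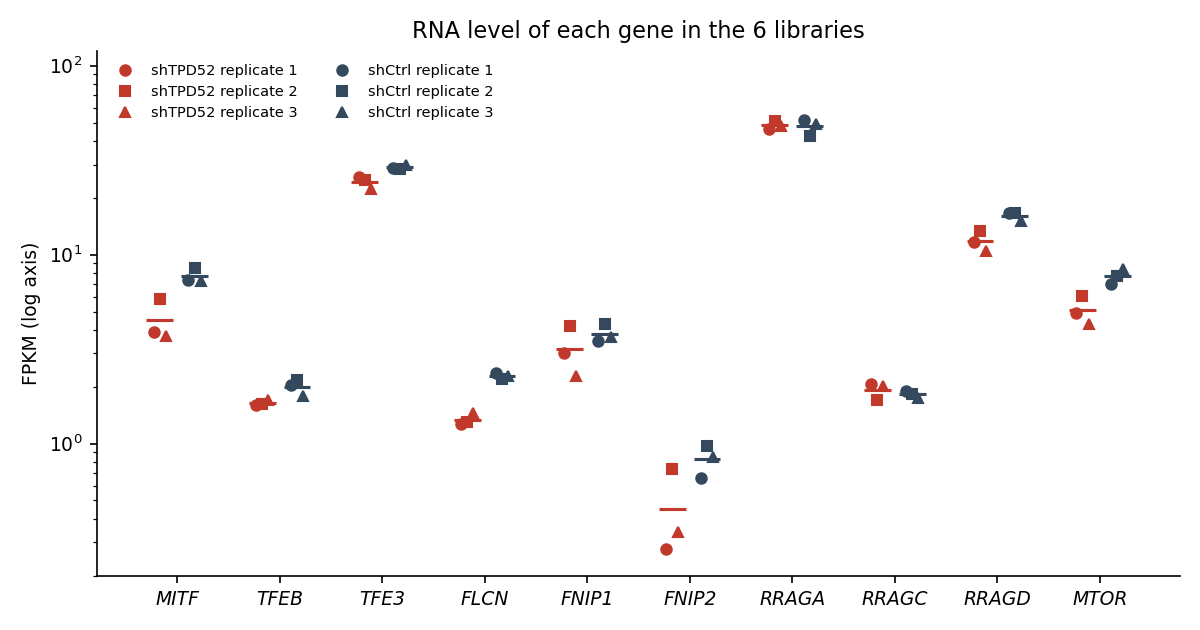
RNA level (FPKM, log axis) of the 10 genes in each library, with shTPD52 in red and shCtrl in blue, marker shapes for the replicate number and a bar at the group mean. The red and blue points separate for MITF, TFEB, TFE3, FLCN, RRAGD and MTOR, with RRAGA near 50 FPKM and FNIP2 under 1 FPKM.

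MITF, the factor best known as the master regulator of pigment cells, fell in shTPD52. MITF (ENSG00000187098, GRCh38 chromosome 3, 69739435 to 69968337, plus strand) had 3.90, 5.84 and 3.72 FPKM in shTPD52 replicates 1, 2 and 3, against 7.31, 8.51 and 7.26 FPKM in shCtrl replicates 1, 2 and 3. The groups did not overlap, and shTPD52 replicate 2 was the library nearest to the controls. The means were 4.49 ± 1.18 FPKM in shTPD52 and 7.69 ± 0.711 FPKM in shCtrl (SD, n = 3 each), a ratio of 0.583. On the log2 scale the change was -0.74 (SE 0.16, limma adjusted p = 0.0250). These levels rest on 824 to 1524 reads per shTPD52 library and 1791 to 1915 per shCtrl library. The table gives 1 value per gene, so the isoforms that start at the different MITF promoters were not separated. The call held after length and GC correction at -0.58 (adjusted p by limma 0.0115), and it was lost when any library other than shTPD52 replicate 2 was left out (limma adjusted p between 0.0624 and 0.0962). Without shTPD52 replicate 2 the change was -0.92 (limma adjusted p = 0.00131).

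TFE3 and TFEB, the paralogs of MITF that control lysosome and autophagy genes in most tissues, stood lower in every shTPD52 library but did not pass. TFE3 (ENSG00000068323, chromosome X, 49028726 to 49043486, minus strand) had 25.8, 25.0 and 22.1 FPKM in shTPD52 replicates 1, 2 and 3, against 28.9, 28.5 and 30.0 FPKM in the shCtrl replicates. Its ratio of means was 0.835 and its fold change -0.26 (SE 0.084, limma adjusted p = 0.0657). Leaving out shTPD52 replicate 2 brought TFE3 past the threshold (-0.28, limma adjusted p = 0.0288). TFEB (ENSG00000112561, chromosome 6, 41683978 to 41736259, minus strand) had 1.61, 1.61 and 1.71 FPKM in the shTPD52 replicates, against 2.04, 2.17 and 1.79 FPKM in the shCtrl replicates. Its fold change was -0.22 (SE 0.12, limma adjusted p = 0.205), and its sign turned after length and GC correction (0.028, limma adjusted p = 0.875).

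TFE3 made up most of the summed FPKM of this family, and the share of MITF was smaller in every shTPD52 library. The shares were not corrected for gene length, 7151 bases for MITF, 6722 for TFEB and 4207 for TFE3. After length and GC correction the fold changes were -0.58 for MITF, 0.028 for TFEB and -0.13 for TFE3. The part of gene length in the shares was not tested. MITF took 12.45%, 18.02% and 13.49% of the summed FPKM of MITF, TFEB and TFE3 in shTPD52 replicates 1, 2 and 3, against 19.1%, 21.7% and 18.6% in the shCtrl replicates. TFE3 took 79.9% ± 2.73 in shTPD52 and 75.0% ± 2.07 in shCtrl, and TFEB 5.43% ± 0.668 in shTPD52 and 5.15% ± 0.498 in shCtrl (SD, n = 3 each). The sum of the 3 genes was 30.4 ± 2.54 FPKM in shTPD52 and 38.8 ± 0.542 FPKM in shCtrl. For the shares of MITF and TFE3 and for the sum, the exact permutation p was 0.1 (two-sided), and with 3 libraries a side no smaller one exists, and 0.143 after Benjamini-Hochberg adjustment over 10 such quantities. For the TFEB share it was 0.7 (exact permutation, adjusted 0.778). TFEC, the remaining paralog, had 2 reads in shTPD52 replicate 2, 2 reads in shCtrl replicate 3 and 0 elsewhere, too few to compare the groups.

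**Figure D2:**
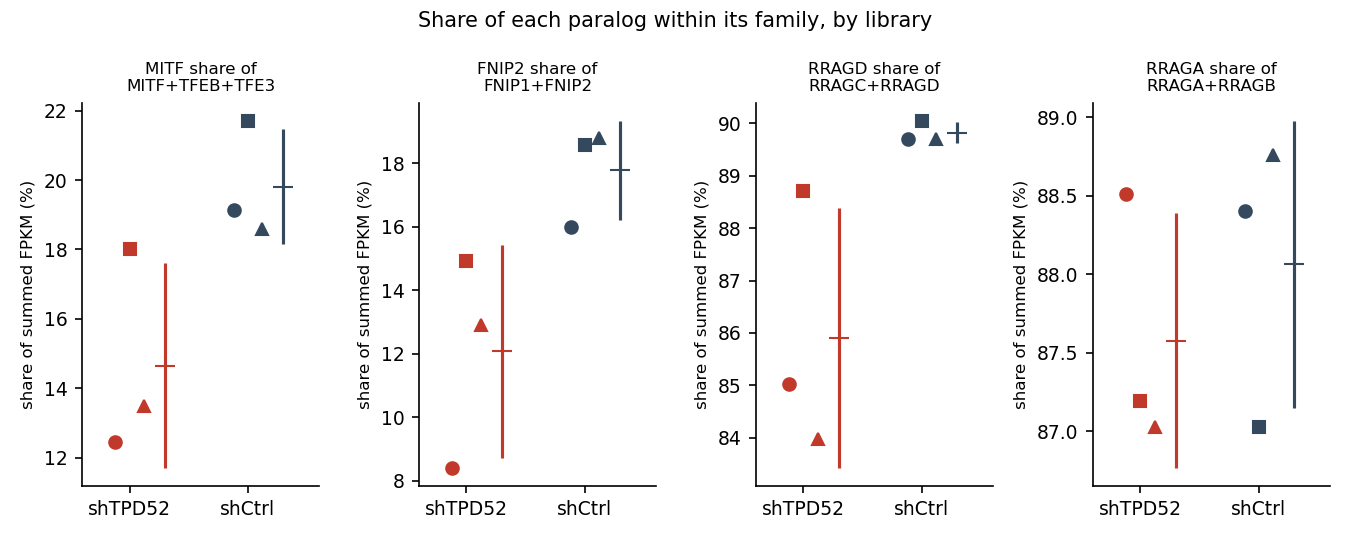
Share (%) of 1 paralog in the summed FPKM of its family, by library (circle, square and triangle for replicates 1, 2 and 3), with the group mean and SD beside the points. The axes do not start at 0, and the shares were not corrected for gene length. The shares of MITF, FNIP2 and RRAGD are lower in all shTPD52 libraries than in all shCtrl libraries, while the RRAGA shares overlap between 87.0% and 88.8%.

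FLCN, the tumour suppressor lost in Birt-Hogg-Dubé syndrome, fell, and its replicates lay close together in both groups. FLCN (ENSG00000154803, chromosome 17, 17212212 to 17237188, minus strand) had 1.27, 1.29 and 1.45 FPKM in shTPD52 replicates 1, 2 and 3, against 2.36, 2.19 and 2.27 FPKM in shCtrl replicates 1, 2 and 3. The groups were well apart, and here shTPD52 replicate 2 lay with its group. The means were 1.34 ± 0.0951 FPKM in shTPD52 and 2.27 ± 0.0816 FPKM in shCtrl (SD, n = 3 each), a ratio of 0.588, and the fold change was -0.60 (SE 0.11, limma adjusted p = 0.0178). The reads behind them numbered 367 to 543 per shTPD52 library and 656 to 821 per shCtrl library. FLCN is long, 9786 bases of exons, and its call was lost after length and GC correction (-0.29, limma adjusted p = 0.112). It was also lost without any 1 shCtrl library or without shTPD52 replicate 1 (limma adjusted p between 0.0632 and 0.0891). A second gene, ENSG00000264187, shares 1161 exonic bases (11.9%) with FLCN on the same strand and stood at 0.135 to 0.246 FPKM, so reads in that stretch cannot be assigned to one of them with certainty.

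FNIP1 and FNIP2, the interchangeable partners of folliculin, did not pass. FNIP1 (ENSG00000217128, chromosome 5, 131641714 to 131797063, minus strand) had 3.03, 4.17 and 2.29 FPKM in shTPD52 replicates 1, 2 and 3, against 3.47, 4.27 and 3.65 FPKM in the shCtrl replicates. The groups overlapped through shTPD52 replicate 2, and the fold change was -0.26 (SE 0.19, limma adjusted p = 0.330). FNIP2 (ENSG00000052795, chromosome 4, 158769138 to 158908049, plus strand) had 0.277, 0.731 and 0.339 FPKM in the shTPD52 replicates, against 0.662, 0.974 and 0.844 FPKM in the shCtrl replicates. It rests on 90 to 293 reads in shTPD52 libraries and 249 to 342 in shCtrl libraries. Added to the fit by itself, FNIP2 had a fold change of -0.51 (SE 0.22, limma adjusted p = 0.130), with a ratio of means of 0.544. Without shTPD52 replicate 2 both passed, FNIP1 at -0.45 (limma adjusted p = 0.0330) and FNIP2 at -0.71 (limma adjusted p = 0.0212), and FNIP2 also passed on recovered reads (-0.96, limma-voom adjusted p = 0.0498). FNIP2 made up 12.1% ± 3.34 of the FPKM of both partners in shTPD52 and 17.8% ± 1.55 in shCtrl (SD, n = 3 each, exact permutation p = 0.1, two-sided, adjusted 0.143). This share too was not corrected for gene length, 10981 bases for FNIP2 and 7942 for FNIP1.

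RRAGD was the only Rag GTPase gene of the 4 measured that fell, though no test compared it with the others. RagD is the close paralog of RagC, and either one can present MITF-TFE factors to mTORC1. RRAGD (ENSG00000025039, chromosome 6, 89364636 to 89412270, minus strand) had 11.7, 13.3 and 10.5 FPKM in shTPD52 replicates 1, 2 and 3, against 16.5, 16.5 and 15.1 FPKM in shCtrl replicates 1, 2 and 3. Every shTPD52 library was below every shCtrl library, and shTPD52 replicate 2 was again the nearest to the controls. The means were 11.9 ± 1.43 FPKM in shTPD52 and 16.1 ± 0.828 FPKM in shCtrl (SD, n = 3 each), a ratio of 0.739. The fold change was -0.43 (SE 0.10, limma adjusted p = 0.0314), and it held after length and GC correction (-0.33, limma adjusted p = 0.0165). The call was lost when any library other than shTPD52 replicate 2 was left out (limma adjusted p between 0.0732 and 0.105), and without shTPD52 replicate 2 it stood at -0.51 (limma adjusted p = 0.00353).

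RRAGC, the paralog of RRAGD, had 2.06, 1.70 and 2.01 FPKM in shTPD52 replicates 1, 2 and 3, against 1.90, 1.83 and 1.73 FPKM in the shCtrl replicates. RRAGC (ENSG00000116954, chromosome 1, 38838198 to 38859823, minus strand) overlapped between the groups and had a fold change of 0.060 (SE 0.12, limma adjusted p = 0.736). RRAGA (ENSG00000155876, chromosome 9, 19049395 to 19050983, plus strand), the most abundant of the 10 genes, had 46.5, 51.2 and 48.0 FPKM in the shTPD52 replicates, against 51.8, 42.3 and 49.1 FPKM in the shCtrl replicates. Its fold change was 0.028 (SE 0.094, limma adjusted p = 0.849), and its sign turned after length and GC correction and without shTPD52 replicate 2 or shCtrl replicate 2. RRAGB, the paralog of RRAGA, averaged 6.90 ± 0.774 FPKM in shTPD52 and 6.44 ± 0.306 FPKM in shCtrl (SD, n = 3 each, fold change 0.088, limma adjusted p = 0.560). Within RRAGC, 1183 exonic bases (22.9%) are shared with an annotated transcript on the same strand, ENSG00000273637, that was not used here.

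Because a Rag pair takes 1 member of each kind, the summed levels of both kinds were set side by side. RRAGC and RRAGD together came to 13.8 ± 1.27 FPKM in shTPD52 and 17.9 ± 0.903 FPKM in shCtrl, and RRAGA and RRAGB together to 55.4 ± 3.11 FPKM in shTPD52 and 54.2 ± 5.06 FPKM in shCtrl (SD, n = 3 each). The ratio of the RRAGA and RRAGB sum to the RRAGC and RRAGD sum was 3.81, 3.90 and 4.40 in shTPD52 replicates 1, 2 and 3, against 3.18, 2.65 and 3.29 in the shCtrl replicates. All shTPD52 libraries lay above all shCtrl libraries (exact permutation p = 0.1, two-sided, adjusted 0.143). The ratio was not corrected for gene length, which was 1599 bases for RRAGA, 2715 for RRAGB, 5116 for RRAGC and 5095 for RRAGD. Tested genes of at least 5 kb had a median fold change of -0.21, and shorter ones of -0.0067. The part of this length trend in the ratio was not tested, nor how often such ratios separate the groups among other genes. RRAGD made up 85.9% ± 2.49 of the RRAGC and RRAGD sum in shTPD52 and 89.8% ± 0.200 in shCtrl (SD, n = 3 each, exact permutation p = 0.1, two-sided, adjusted 0.143). For the share of RRAGA in its own sum the groups overlapped (exact permutation p = 0.7, two-sided, adjusted 0.778).

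MTOR, the kinase that the Rag GTPases recruit, fell as well. MTOR (ENSG00000198793, chromosome 1, 11106535 to 11262507, minus strand) had 4.92, 6.08 and 4.30 FPKM in shTPD52 replicates 1, 2 and 3, against 6.98, 7.71 and 8.41 FPKM in shCtrl replicates 1, 2 and 3. The groups did not overlap, and the highest shTPD52 value came again from replicate 2. The means were 5.10 ± 0.905 FPKM in shTPD52 and 7.70 ± 0.715 FPKM in shCtrl (SD, n = 3 each), a ratio of 0.662, with a fold change of -0.56 (SE 0.13, limma adjusted p = 0.0304). MTOR is the longest of the 10 genes at 12163 bases, and its call was lost after length and GC correction (-0.25, limma adjusted p = 0.0609). It was also lost when any library other than shTPD52 replicate 2 was left out (limma adjusted p between 0.0720 and 0.124), and without shTPD52 replicate 2 it stood at -0.68 (limma adjusted p = 0.00313). The antisense gene MTOR-AS1 overlaps 220 bases (1.82%) of MTOR and reached at most 0.0765 FPKM. The strand setting is not given in the sources used here, so reads there cannot be told apart.

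**Figure D3:**
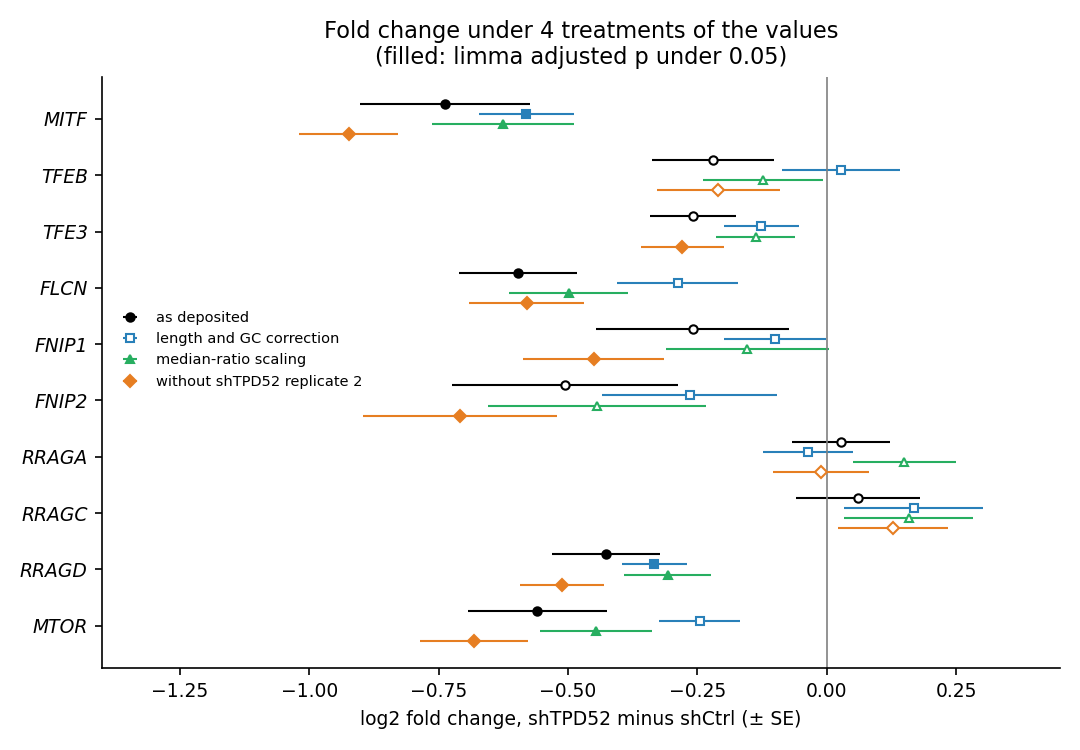
Fold change of each gene (log2, shTPD52 minus shCtrl, ± SE) with the values as deposited, after length and GC correction, after median-ratio scaling and without shTPD52 replicate 2; filled points passed the limma test. MITF and RRAGD are filled in all 4 treatments, FLCN and MTOR lose the call with length and GC correction, and without shTPD52 replicate 2 all but TFEB, RRAGA and RRAGC are filled.

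Set in order of level, RRAGA led, then TFE3, then RRAGD, with no overlap of neighbours in either group. MTOR and MITF followed and overlapped in both groups. FNIP1 overlapped MITF in shTPD52 and stood below it in shCtrl. At the low end FLCN was below TFEB and RRAGC in shTPD52, whereas in shCtrl it was above both, and TFEB and RRAGC overlapped each other in both groups. FNIP2 was lowest throughout. Among all tested genes RRAGA ranked at percentile 94.4 of mean level, TFE3 at 88.7, RRAGD at 77.2, MTOR at 56.9, MITF at 55.4 and FLCN at 17.1.

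Over the 6 libraries the log2 level of MITF followed that of RRAGD (Pearson's r = 0.972), MTOR (0.951) and FNIP2 (0.951). It had an r of -0.099 with RRAGA and of -0.686 with RRAGC. FLCN had an r of 0.375 with FNIP1 and of 0.689 with FNIP2, the genes of its binding partners. These values describe 6 libraries that share the difference between the groups and the place of shTPD52 replicate 2. In 6 of the 10 genes shTPD52 replicate 2 was the shTPD52 library nearest to the shCtrl mean, against 56.62% of all tested genes. The genes whose levels were most like those of FLCN across the 6 libraries were BMERB1 (Pearson's r = 0.9988), SPATA20 (0.9985) and TOX2 (0.9952).

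Of the 10 genes, 8 are at least 5 kb long, as are 5808 of the 12782 tested genes. The median fold change of tested genes of at least 5 kb was -0.21 and that of shorter ones -0.0067, and the median of the 10 genes was -0.34. After the length and GC correction it was -0.19 for the 10 genes and 0.0052 for all genes, and with median-ratio scaling -0.23 and 0.0005. MITF and RRAGD were the 2 of the 10 genes called after length and GC correction, where 10.0% of genes were called lower. After median-ratio scaling the same 4 were called as with the deposited values, where 8.12% of genes were called lower. When values were rescaled to the reads outside mitochondrially encoded genes, 4 were called as well.

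**Figure D4:**
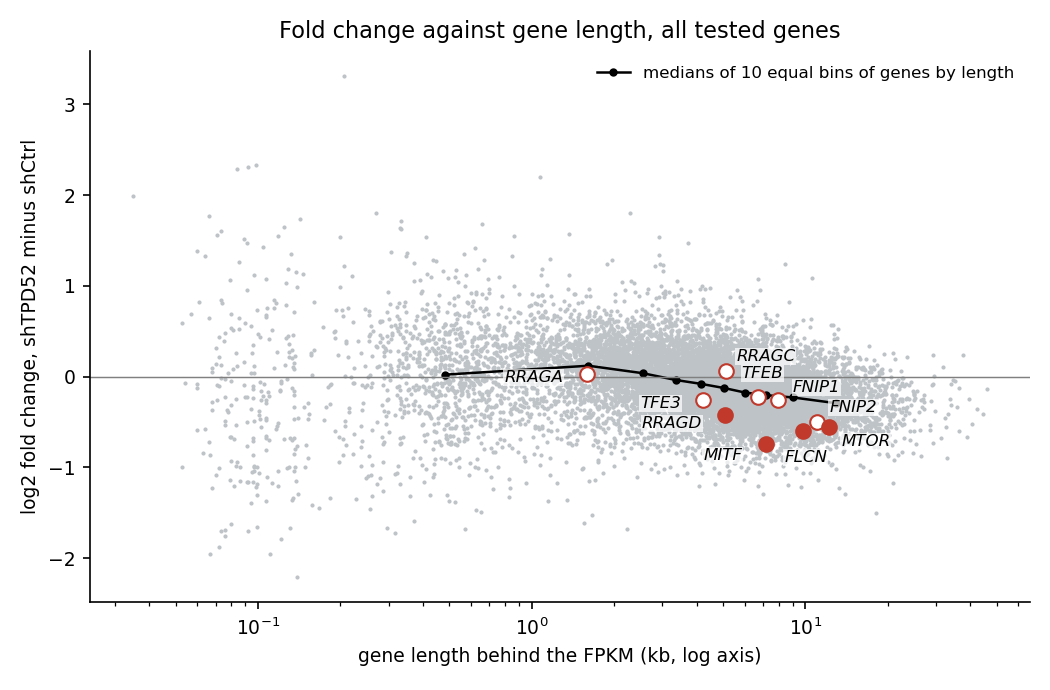
Fold change (log2, shTPD52 minus shCtrl) against the gene length behind the FPKM (kb, log axis) for all tested genes in grey and the 10 genes in red (filled where called), with the medians of 10 equal bins of genes by length in black. The black line runs lower toward long genes, and MITF, FLCN, RRAGD and MTOR lie below it, while RRAGC lies above it.

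Around these genes, 11 lists of the same pathway held 91 tested genes, of which 18 fell and 2 rose. Together 20 of 91 were called, beside 18.3% of all tested genes. Median-ratio scaling left 7 lower and 3 higher, length and GC correction gave 11 lower and 9 higher, and without shTPD52 replicate 2 there were 38 lower and 6 higher. Without shCtrl replicate 1 or 2 or shTPD52 replicate 1 only 1 was called, without shCtrl replicate 3 none by limma (unadjusted p under 0.05 in 23 lower and 2 higher) and without shTPD52 replicate 3 the number was 7.

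Upstream of the Rag GTPases, 4 lists are given by their calls, beside 12.7% of all tested genes and 17.5% of those of at least 5 kb called lower, and shares near these are no result about the lists. Of the Ragulator subunits that anchor the Rag GTPases and the arginine sensor SLC38A9, none of 6 was called by limma (median 0.12), with 0 lower and 1 higher at an unadjusted p under 0.05. In GATOR1, which switches RagA and RagB off, and its anchor KICSTOR, 1 of 6 tested genes fell (median -0.24). In GATOR2, which opposes GATOR1, 2 of 5 fell (median -0.34): WDR24 (-0.54, limma adjusted p = 0.0301) and WDR59 (-0.41, limma adjusted p = 0.0318). Of 7 tested amino acid sensors 1 fell (median -0.20), SESN3, a sestrin, at -0.66 (limma adjusted p = 0.0472). WDR59 no longer passed after length and GC correction (-0.16, adjusted p by limma = 0.161). SESN3 passed there (-0.48, adjusted p by limma = 0.0225) but not after median-ratio scaling (-0.56, limma adjusted p = 0.0540).

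The next lists stand beside 12.7% of all tested genes called lower, 17.5% of those of at least 5 kb, and 5.63% called higher. Shares near these are again no result about the lists. Among the partners of MTOR in its complexes, 1 of 6 tested genes rose (median -0.19) and none fell. It was AKT1S1, which encodes the mTORC1 inhibitor PRAS40 (fold change 0.45, limma adjusted p = 0.0294). In the TSC complex, which restrains mTORC1 through the GTPase RHEB, 2 of 4 fell (median -0.19), TSC1 (-0.44, limma adjusted p = 0.0326) and TSC2 (-0.41, limma adjusted p = 0.0449). After the length and GC correction neither passed, TSC1 at -0.10 (limma adjusted p = 0.321) and TSC2 with its sign turned at 0.041 (limma adjusted p = 0.780). Of 8 mTORC1 substrates 1 fell (median -0.20), ULK1, the kinase that starts autophagy, at -0.38 (limma adjusted p = 0.0325). Neither after length and GC correction (-0.065, adjusted p by limma = 0.517) nor after median-ratio scaling (-0.26, limma adjusted p = 0.0562) did it pass.

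Of 16 genes that control where MITF-TFE proteins reside, 2 fell (median -0.29). That share is near the 12.7% of all tested genes called lower and is no result about the list. These 2 were YWHAH, a 14-3-3 protein, from the family that holds phosphorylated factors in the cytoplasm (-0.36, limma adjusted p = 0.0240), and MAPK3, the kinase ERK1 (-0.30, limma adjusted p = 0.0410). After length and GC correction YWHAH kept its call (-0.39, adjusted p by limma = 0.0146) and MAPK3 did not (-0.19, adjusted p by limma = 0.0828). With median-ratio scaling neither passed, YWHAH at -0.24 (limma adjusted p = 0.102) and MAPK3 at -0.18 (limma adjusted p = 0.211). Of 5 tested AMPK subunits and kinases 1 fell (median -0.13), beside the same 12.7% of all tested genes. PRKAB2, a regulatory AMPK subunit, had 4.69 ± 1.07 FPKM in shTPD52 and 8.18 ± 0.339 FPKM in shCtrl (SD, n = 3 each, fold change -0.76, limma adjusted p = 0.0172).

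The CLEAR genes, the targets of TFEB and TFE3, moved in both directions. Of 28 tested, 8 fell and 1 rose (median -0.16), beside 12.7% and 5.63% of all tested genes. SGSH, which removes sulfate from heparan sulfate, had 7.28 ± 0.935 FPKM in shTPD52 and 12.5 ± 0.701 FPKM in shCtrl (SD, n = 3 each, fold change -0.74, limma adjusted p = 0.0104). CLCN7, a lysosomal chloride transporter, fell by 0.56 in log2 units (limma adjusted p = 0.0130), and GAA, which breaks down lysosomal glycogen, by 0.40 (limma adjusted p = 0.0180). GAA no longer passed after length and GC correction (-0.17, adjusted p by limma = 0.0811) or after median-ratio scaling (-0.27, limma adjusted p = 0.0515). VPS11, VPS18, PSAP and LAMP1, named after their values were seen, fell by between 0.28 and 0.37 in log2 units (limma adjusted p 0.0230 to 0.0400). The balance turned with the scaling: 5 fell and 6 rose after length and GC correction, and 2 fell and 2 rose after median-ratio scaling. Of the 8 MITF targets of pigment cells only PMEL reached the filter, at 2.90 ± 0.219 FPKM in shTPD52 and 3.67 ± 0.513 FPKM in shCtrl (SD, n = 3 each, limma adjusted p = 0.131). DCT, a melanin enzyme, reached at most 0.144 FPKM.

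**Figure D5:**
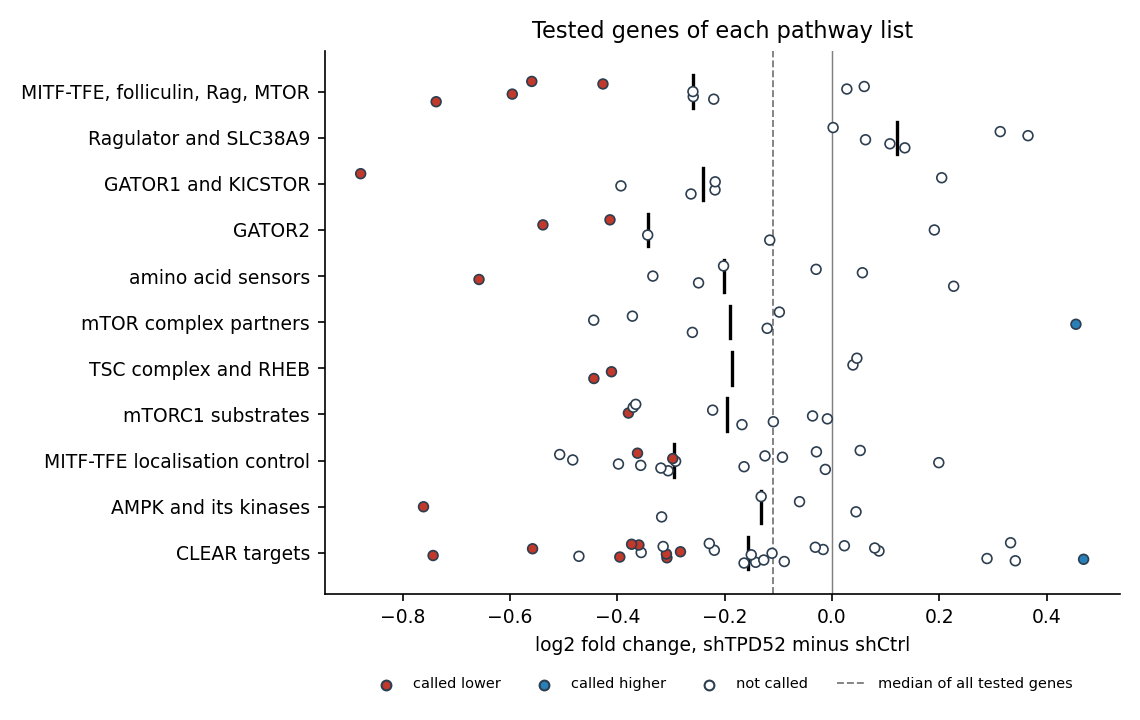
Fold change (log2, shTPD52 minus shCtrl) of every tested gene in the lists, with a black bar at each list's median and a dashed line at the median of all tested genes (-0.11). The top row holds the 9 tested genes out of the 10 described, with a median of -0.26 (-0.34 with FNIP2); Ragulator genes lie at or above 0, and the CLEAR genes spread to both sides with 8 called lower and 1 higher.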

How the data were processed

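RNA of 6 NCI-H295R libraries (3 shTPD52, 3 shCtrl) was sequenced; groups and replicate numbers come from the titles. The table the authors deposited holds FPKM, 1 column per library. Per the submitters' processing notes, the tools were HISAT2 2.2.1 and featureCounts 2.0.3 and the build GRCh38 (hg38). Their roles, the annotation release, strand setting and handling of mate pairs were not given in the sources used here.

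FPKM were tested without further scaling by limma 3.58.1 (R 4.3.3, intensity trend, two-sided) on log2(FPKM + 0.5), in 12782 genes that averaged 1 FPKM or more, with Benjamini-Hochberg adjustment over all of them. FNIP2 and TPD52, under that filter, were each added to the fit singly. Reads were worked back from FPKM with exon unions of GENCODE 29 where these gave whole reads within 0.02 (4400 tested genes) and a searched length otherwise (8375; 7 had none). Gene coordinates are from GENCODE 29 on GRCh38, promoter windows from RefSeq. The length and GC correction used loess (span 0.3) over 12707 genes, with the GC content of the longest transcript. The scripts were tested on simulated data. For limma these held no outlying library and no trend on gene length or GC, so that test does not cover these features of the data.

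In all 18 alternatives were run, 1 of them (rescaling to reads outside mitochondrially encoded genes) chosen after seeing the data. Genes and lists were chosen with earlier results of these data known. Named were the 10 genes, up to 4 called genes of a list by smallest p, TPD52, and the 3 genes most correlated with FLCN; some genes under this rule are not reported here. Read numbers cover counting error only.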

Additional observations from a re-analysis of the deposited data

How the results depend on the processing

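Among all tested genes 531 were called without a filter on low values, and 87 (without shCtrl replicate 3) to 5825 (without shTPD52 replicate 2) when 1 library was left out. Of the 10 genes, limma called 0 without a filter (5 lower at an unadjusted p under 0.05), 2 after the length and GC correction, and 0 to 7 with 1 library left out. The 0 came without any 1 shCtrl replicate or shTPD52 replicate 1 (4 to 6 lower at an unadjusted p under 0.05), the 7 without shTPD52 replicate 2, and the 1 left without shTPD52 replicate 3 was FLCN (-0.64, adjusted p = 0.0369). In the pathway lists together 4 were called without a filter, 10 with median-ratio scaling, 13 with reads of mitochondrially encoded genes left out of the scaling, and 0 to 44 with 1 library left out.

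Without a filter the fold changes of MITF (-0.74, adjusted p = 0.0916), FLCN (-0.60, 0.0522), RRAGD (-0.43, 0.0900) and MTOR (-0.56, 0.0993) lost their calls. After the length and GC correction FLCN (-0.29) and MTOR (-0.25) lost theirs, and TFEB (0.028) and RRAGA (-0.036) changed sign. FNIP2 passed with limma-voom (-0.96). With 1 library left out the fold change ran from -0.92 to -0.63 for MITF, -0.64 to -0.57 for FLCN, -0.51 to -0.35 for RRAGD, -0.68 to -0.45 for MTOR, -0.30 to -0.19 for TFE3, -0.45 to -0.079 for FNIP1, -0.71 to -0.38 for FNIP2 and -0.056 to 0.088 for RRAGA. The cause of these changes was not tested. Pseudocounts, a filter of 5 FPKM, quantile normalization, limma without the trend or with a robust prior, and limma-voom left MITF, FLCN, RRAGD and MTOR called.

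Libraries of the same number deviated together only weakly (r = 0.0451, 0.248 and 0.0223). The highest r, 0.2827, was between shTPD52 replicate 3 and shCtrl replicate 1. With 3 libraries a group, these values cannot show whether the numbers pair the libraries, and the main test used no pairing. With the replicate block, 3064 genes and 4 of the 10 were called (MITF -0.74, FLCN -0.60, RRAGD -0.43, MTOR -0.56). Limma-voom called 2888 genes. Depth limits FNIP2 most, with as few as 90 reads in a library.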
